A study of Mus musculus with 6 samples.

Results

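Fibronectin, the thrombospondins, the tenascins and 3 further matricellular proteins were followed as a set of 10 genes (Fn1, Thbs1, Thbs2, Thbs3, Thbs4, Tnc, Tnxb, Sparc, Postn and Spp1), taken by symbol from the 55401 genes counted. All 10 were found, each under 1 Ensembl identifier, and all 10 passed the filter on low counts. RNA came from NIH3T3 cells, an immortalized line of mouse embryonic fibroblasts. There were 2 libraries of cells with an empty vector and DMSO (EV), 1 library of cells with the TAZ-CAMTA1 fusion and DMSO (TC) and 3 libraries of TAZ-CAMTA1 cells with 10 μM aurintricarboxylic acid (TC + ATA). All cells were treated for 48 h before RNA extraction. TAZ-CAMTA1 is the fusion oncoprotein of epithelioid hemangioendothelioma, and ATA was studied because it may keep TAZ from binding TEAD factors. All groups share the same parental line, and ATA was given to TC cells only, so an effect of ATA in EV cells was not measured. The sources used here do not say whether the TC cells were a pool or a clone, or whether libraries of a group came from separate cultures. The p-values therefore measure the spread between these libraries, which may be technical.

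Fibronectin is a large glycoprotein that cells assemble into fibrils through integrins, and it forms the early scaffold on which collagens and other matrix proteins are laid down. Thrombospondins, tenascin-C, SPARC, periostin and osteopontin are matricellular proteins, that is, secreted proteins that act mainly on how cells attach to and sense the matrix. Fibroblasts are a main source of most of them, and YAP/TAZ activity is known to be tied to matrix stiffness and adhesion.

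Library totals ran from 58471484 to 74413193 counts, so that counting error was small for every gene of the set except Thbs4. The 9 fibroblast markers all had counts in every library and summed to between 13073 and 17840 CPM, that is, counts scaled to library size with TMM factors. They split in TC versus EV, with 3 higher and 2 lower at an adjusted p of at most 0.05 from edgeR (background 14.8% and 13.2%). Col1a1, Vim and Ddr2 rose by 1.44-fold, 1.56-fold and 1.56-fold. Pdgfra fell by 2.29-fold (log2 fold change −1.20, adjusted p = 1.31e-05 from edgeR) and Prrx1 by 2.25-fold (log2 fold change −1.17, adjusted p = 2.09e-05 from edgeR). Markers of other cells were low. The 7 macrophage markers summed to between 9.47 and 9.57 CPM in EV, 12.0 CPM in TC and between 13.5 and 17.7 CPM in TC + ATA, with Itgam at 0 counts in EV and TC. Members of this list moved apart: Lyz2 rose from 0.372 ± 0.174 CPM (SD, n = 2) to 5.66 CPM in TC (log2 fold change 3.92, standard error 0.27, adjusted p = 1.09e-05 from edgeR) and stood at 8.98 ± 0.598 CPM (SD, n = 3) in TC + ATA, whereas Csf1r was 2.41-fold lower in TC + ATA than in EV (log2 fold change −1.27, standard error 0.28, adjusted p = 0.00709 from edgeR). The 6 endothelial markers summed to between 1.88 and 2.78 CPM in EV, 4.05 CPM in TC and between 3.47 and 4.24 CPM in TC + ATA. The 5 epithelial markers summed to at most 3.75 CPM in any library, with Krt5 at 0 counts in EV and TC + ATA and Cldn7 at 0 in EV and TC. Of the 6 osteoblast markers, Ibsp was at 0 counts in all libraries, and most of the sum, between 34.7 and 53.2 CPM, was Runx2. Their part in the results was not tested. In bulk RNA, fewer cells that express a gene and less of its RNA per cell cannot be told apart.

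Levels of different genes were compared per length, as CPM per kilobase of annotated exon. In EV, Spp1 had the highest level per length of the 10 genes, at 473 CPM per kilobase, followed by Sparc (304), Fn1 (229.9), Thbs2 (103) and Thbs1 (85.6). Spp1 thereby ranked 88 and Sparc ranked 152 among the 18519 tested genes with a known exon length. The neighbours Thbs2 and Thbs1 differed by more than the spread between the EV libraries. Tnc followed at 23.5 CPM per kilobase. Thbs3 (4.74), Postn (1.54), Tnxb (0.812) and Thbs4 (0.135) were the 4 lowest.

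In TC the order was led by Sparc, at 701 CPM per kilobase, with Spp1 at 278 and Fn1 at 129.7. Sparc then ranked 54 among the 18519 genes. Tnc (5.16), Thbs3 (4.57) and Tnxb (3.85) came to similar levels per length in TC, although Tnc was far above Tnxb in EV. In TC + ATA, Sparc reached 797 CPM per kilobase and rank 42, and Tnxb (5.73) lay above Tnc (4.13). Scaling by library size alone left the order of the 10 genes the same in each group.

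**Figure D1:**
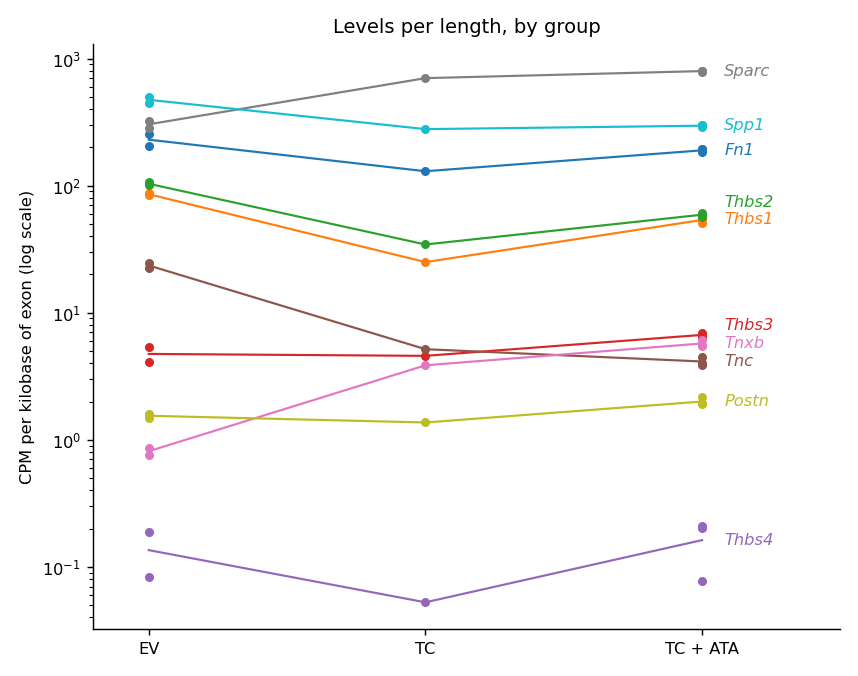
Level of each of the 10 genes in CPM per kilobase of exon (log scale) in EV, TC and TC + ATA, with points for libraries and lines joining group means. Sparc passes Spp1 and Tnxb approaches Tnc between EV and TC, while Thbs4 stays lowest, with group means of 0.0526 to 0.162 CPM per kilobase.

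Promoters of 300 bases (250 before to 50 after the annotated start, RefSeq, GRCm38.p6) were at hand for 8 of the 10 genes, all but Fn1 and Thbs1. They were searched on both strands for the TEAD motif GGAATG and the AP-1 motif TGANTCA, because TAZ acts through TEAD factors and AP-1 often binds beside TEAD. Each motif was found in 1 of the 8 genes, against 16.58% of all 27025 genes for TEAD and 8.97% for AP-1. Thbs4 held 2 overlapping TEAD matches (in reverse complement, CATTCC), 197 to 187 bases before its start, and Tnxb held 1 AP-1 match 55 to 49 bases before its start. Both windows are shown 5′ to 3′ on the gene's strand with the matches in capitals.
Thbs4, chr13:92794995-92795024, minus strand: tgtccacctCATTCCATTCCgtctggtctc
Tnxb, chr17:34670469-34670498, plus strand: ctgacctttacTGAGTCAgttctcacacgg
A match describes letters in this window only. The start of Tnxb used here is the annotated one, and the true start of its RNA may lie elsewhere.

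The comparison of TC with EV asks what the fusion changed in these genes. Tnc, Thbs1, Thbs2, Fn1 and Spp1 were lower in TC, by between 1.70-fold for Spp1 and 4.56-fold for Tnc. Tnxb and Sparc were higher, by 4.74-fold and 2.31-fold. Thbs3, Thbs4 and Postn did not pass the test. That is 7 of 10 genes called at an adjusted p of at most 0.05 (edgeR's quasi-likelihood test, all 6 libraries in the fit), against a background of 28.0% of the 18539 genes tested. By direction, 5 were lower (background 13.2%) and 2 higher (14.8%). Only Tnc and Tnxb of the 10 also passed the study's limit of 2 on the absolute log2 fold change, which 3.64% of all genes passed. The median absolute log2 fold change was 1.28 over the 10 genes and 0.39 over all genes tested. The backgrounds given throughout cover tested genes at any level and were not matched to the levels of the 10 genes. Of the 38 tested relatives, receptors and partners listed below, 60.5% were called in TC versus EV. TC has 1 library, which is assumed to vary like the EV and TC + ATA libraries.

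The comparison of TC + ATA with TC asks what ATA changed in cells with the fusion. Thbs1 and Thbs2 were higher with ATA, by 2.15-fold and 1.72-fold. None was called lower by edgeR or by DESeq2 with all libraries (background 0.156%), and at an unadjusted p under 0.05 there were 6 higher and 1 lower, Tnc. These 2 of 10 genes stand against 0.583% of all genes called in either direction (0.426% higher). Each of the 3 TC + ATA libraries exceeded TC in 9 of the 10 genes, all but Tnc, and did so in 30.5% of the genes tested. The median log2 fold change was 0.55 over the 10 genes and 0.00 over all genes tested. The count depended on the tool, on the filter on low counts and on which libraries were in the fit. With all libraries, DESeq2 called 6 of the 10 genes higher, and so did edgeR without the filter. The median coefficient of variation of the 10 genes was 8.38% in EV and 3.97% in TC + ATA. With only TC and TC + ATA in the fit, edgeR called 7 of the 10 genes higher and Tnc lower. Thbs2 was no longer called when any of the TC + ATA libraries was left out (adjusted p from 0.0815 to 0.104 from edgeR) or with the replicate number as a block (log2 fold change 0.81, adjusted p = 0.116 from edgeR), whereas Thbs1 was called under all 14 alternatives.

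The comparison of TC + ATA with EV has replicates in both groups. These groups differ in both the fusion and ATA, which this comparison cannot tell apart. Tnc, Thbs1, Thbs2 and Spp1 were lower than in EV, and Tnxb, Sparc, Thbs3 and Postn were higher, so that 8 of 10 genes were called against 36.6% of all genes (18.6% lower and 18.0% higher). Tnc and Tnxb were again the genes past a log2 fold change of 2 in either direction (3.87% of all genes). These 3 comparisons share libraries. The TC library enters the first and the second in opposite roles, so a difference in it alone would give a fall in one and a rise in the other.

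**Figure D2:**
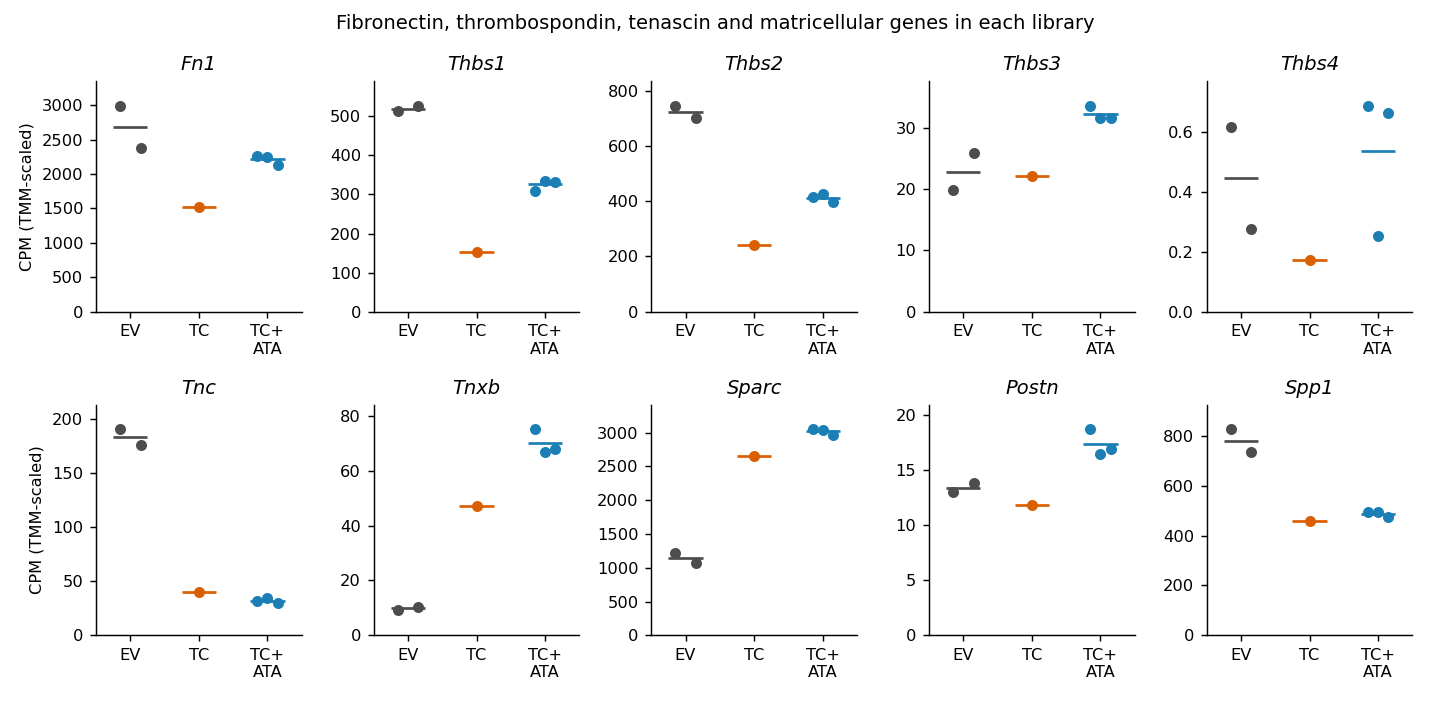
CPM after TMM normalization in each library (points) with the group mean (bar) for the 10 genes, each on its own axis from 0. Fn1, Thbs1 and Thbs2 are high in EV, low in TC and between them in TC + ATA, Tnc is low in TC and in TC + ATA, and Tnxb and Sparc are high in both.

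Fn1 (chromosome 1, 71585520 to 71653200 on GRCm38, GENCODE M21) encodes fibronectin. It had 2993 and 2379.8 CPM in EV, 1516 CPM in TC and 2258, 2254 and 2131 CPM with ATA. The TC value was below both EV values, and the TC + ATA values lay above TC and below both EV libraries. The coefficient of variation was 16.1% between the EV libraries and 3.28% between the TC + ATA libraries. Fn1 fell in TC by 1.77-fold (log2 fold change −0.83, standard error 0.14, adjusted p = 0.00259 from edgeR). This call was lost when only the EV and TC libraries were in the fit (adjusted p = 0.0768 from edgeR). Fn1 did not pass the test in TC + ATA versus TC (log2 fold change 0.55, 95% interval 0.24 to 0.85, adjusted p = 0.159 from edgeR), and it was called higher there under 7 of 14 alternatives. Against EV it also missed the threshold (log2 fold change −0.28, 95% interval −0.51 to −0.05, adjusted p = 0.0618 from edgeR), but it was called lower there under 6 of 14 alternatives, among them both DESeq2 fits. Without EV replicate 1 or 2 the log2 fold change was −0.12 or −0.43, and it was called in both cases (adjusted p = 0.0104 and 1.01e-06 from edgeR). The counts are summed over the gene, so the splice forms of fibronectin were not separated. Its exons overlap those of Apol7d on the other strand over 292 of 11685 bases.

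Thbs1 and Thbs2 encode the closely related thrombospondins 1 and 2, which inhibit angiogenesis, and thrombospondin 1 also activates latent TGF-beta. Thbs1 (chromosome 2, 118111876 to 118127133) had 513 and 527 CPM in EV, 152 CPM in TC and 309.5, 336 and 332 CPM with ATA. The 3 groups did not overlap, with EV highest and TC lowest. It fell by 3.42-fold in TC (log2 fold change −1.78, standard error 0.10, adjusted p = 3.17e-06 from edgeR) and was 2.15-fold higher in TC + ATA than in TC (log2 fold change 1.10, standard error 0.09, adjusted p = 0.00219 from edgeR). In TC + ATA it was still 1.60-fold lower than in EV (log2 fold change −0.67, standard error 0.07, adjusted p = 5.91e-05 from edgeR).

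Thbs2 (chromosome 17, 14665500 to 14694235) had the same order of groups, with 746 and 703 CPM in EV, 241 CPM in TC and 414, 428 and 399 CPM with ATA. It fell by 3.01-fold in TC (log2 fold change −1.59, standard error 0.10, adjusted p = 6.31e-06 from edgeR) and was 1.72-fold higher with ATA (log2 fold change 0.78, standard error 0.09, adjusted p = 0.00926 from edgeR). Against EV it was 1.75-fold lower in TC + ATA (log2 fold change −0.81, standard error 0.07, adjusted p = 2.17e-05 from edgeR). No other gene overlaps the exons of Thbs2, whereas 208 of 6073 exonic bases of Thbs1 overlap Gm29233 on the other strand.

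Thbs3 and Thbs4 encode the other subgroup of thrombospondins, which lack the domains that bind latent TGF-beta and are best known from cartilage, bone and tendon. Thbs3 (chromosome 3, 89215180 to 89226837) had 19.8 and 25.8 CPM in EV, 22.1 CPM in TC and 33.6, 31.5 and 31.6 CPM with ATA. The TC value lay between the EV values, and all TC + ATA values lay above both. The difference between TC and EV did not pass the test (log2 fold change −0.05, 95% interval −0.38 to 0.28, adjusted p = 0.840 from edgeR) and changed sign when EV replicate 2 was left out (0.15). Without EV replicate 1 it was −0.24 and was called lower (adjusted p = 0.0425 from edgeR). Thbs3 was 1.41-fold higher in TC + ATA than in EV (log2 fold change 0.50, standard error 0.11, adjusted p = 0.00658 from edgeR), and did not pass the test against TC (log2 fold change 0.55, 95% interval 0.23 to 0.87, adjusted p = 0.179 from edgeR). Against TC it was called higher under 6 of 14 alternatives. Its exons share 318 of 4823 bases with Mtx1 on the other strand, and reads of the 2 genes may not be separated there.

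Thbs4 (chromosome 13, 92751590 to 92794818) was close to absent, with 46, 21, 12, 39, 18 and 46 counts in EV 1, EV 2, TC and TC + ATA 1 to 3. The EV and TC + ATA libraries overlapped in CPM, and the TC library was lowest. No comparison passed the test, and the intervals were wide. TC differed from EV by −1.35 on the log2 scale (95% interval −3.23 to 0.52), TC + ATA from TC by 1.61 (−0.20 to 3.42) and TC + ATA from EV by 0.25 (−0.97 to 1.48). The coefficient of variation was 53.9% in EV and 45.5% in TC + ATA. In both comparisons with the TC library the intervals reached differences of several fold. The interval of TC + ATA versus EV ran from 0.51-fold to 2.79-fold. The 2 TEAD matches shown above lie before this gene.

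The tenascins moved in opposite directions in TC. Tnc (chromosome 4, 63959785 to 64047015) encodes tenascin-C, a matrix protein of embryos, wounds and tumor stroma that interferes with adhesion to fibronectin. It had 190.1 and 176 CPM in EV, 40.1 CPM in TC and 31.4, 34.5 and 30.3 CPM with ATA. Both EV values were more than 4 times the others, and the TC + ATA values lay below the TC value. Tnc fell by 4.56-fold in TC (log2 fold change −2.19, standard error 0.11, adjusted p = 2.01e-06 from edgeR) and was 5.70-fold lower in TC + ATA than in EV (log2 fold change −2.51, standard error 0.07, adjusted p = 9.29e-08 from edgeR). Between TC + ATA and TC it did not pass the test (log2 fold change −0.32, 95% interval −0.54 to −0.11, adjusted p = 0.259 from edgeR) but was called lower there under 4 of 14 alternatives. Its exons overlap 8030451A03Rik on the other strand over 176 of 7772 bases.

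Tnxb (chromosome 17, 34670535 to 34719815) encodes tenascin-X, which binds collagen fibrils in skin and other connective tissue. It had 9.32 and 10.5 CPM in EV, 47.1 CPM in TC and 75.0, 66.9 and 67.9 CPM with ATA. The groups did not overlap, with EV lowest and TC + ATA highest. Tnxb rose by 4.74-fold in TC (log2 fold change 2.25, standard error 0.10, adjusted p = 1.33e-06 from edgeR) and was 7.05-fold higher in TC + ATA than in EV (log2 fold change 2.82, standard error 0.09, adjusted p = 1.17e-07 from edgeR). It did not pass the test in TC + ATA versus TC (log2 fold change 0.57, 95% interval 0.34 to 0.80, adjusted p = 0.0545 from edgeR) but was called higher there under 6 of 14 alternatives. Per length Tnxb stayed low, with group means of at most 5.73 CPM per kilobase. The AP-1 match shown above lies before this gene.

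Sparc (chromosome 11, 55394500 to 55423183) encodes osteonectin, a collagen-binding protein that is abundant in bone and in remodelling tissue. It had 1225 and 1075 CPM in EV, 2655 CPM in TC and 3046, 3044 and 2962 CPM with ATA. All libraries with the fusion lay above both EV libraries. Sparc rose by 2.31-fold in TC (log2 fold change 1.21, standard error 0.11, adjusted p = 4.87e-05 from edgeR) and was 2.62-fold higher in TC + ATA than in EV (log2 fold change 1.39, standard error 0.09, adjusted p = 3.62e-06 from edgeR). Between TC + ATA and TC the difference did not pass the test (log2 fold change 0.18, 95% interval −0.06 to 0.42, adjusted p = 0.642 from edgeR), but Sparc was called higher there under 4 of 14 alternatives. Sparc took 0.257% of all counts in TC and 0.120% in EV, and no other gene overlaps its exons.

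Postn (chromosome 3, 54361109 to 54391037) encodes periostin, which binds collagen and integrins in the periosteum, heart valves and tumor stroma. It had 13.0 and 13.9 CPM in EV, 11.9 CPM in TC and 18.7, 16.5 and 16.9 CPM with ATA. The TC value was just below both EV values and the TC + ATA values were above them. The difference between TC and EV did not pass the test (log2 fold change −0.18, 95% interval −0.45 to 0.10, adjusted p = 0.332 from edgeR), nor did that between TC + ATA and TC (log2 fold change 0.55, 95% interval 0.28 to 0.81, adjusted p = 0.103 from edgeR). In TC + ATA versus TC, Postn was called higher under 6 of 14 alternatives. Postn was 1.29-fold higher in TC + ATA than in EV (log2 fold change 0.37, standard error 0.09, adjusted p = 0.0109 from edgeR), a call lost without TC + ATA replicate 1 (adjusted p = 0.0518 from edgeR) and with scaling by library size only (adjusted p = 0.0581 from edgeR).

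Spp1 (chromosome 5, 104435118 to 104441050) encodes osteopontin, a secreted phosphoprotein that binds integrins and CD44 and is made by bone cells, macrophages and many transformed cells. It had 825 and 735 CPM in EV, 459 CPM in TC and 495, 496 and 473 CPM with ATA. Both EV libraries were above all libraries with the fusion. Spp1 fell by 1.70-fold in TC (log2 fold change −0.77, standard error 0.10, adjusted p = 0.000625 from edgeR) and was 1.60-fold lower in TC + ATA than in EV (log2 fold change −0.68, standard error 0.07, adjusted p = 0.000117 from edgeR). TC + ATA and TC did not differ beyond the spread (log2 fold change 0.09, 95% interval −0.13 to 0.30, adjusted p = 0.828 from edgeR), and the interval reached 1.23-fold upward. The overlap of 309 of 1648 exonic bases with Gm42793 on the same strand makes the count of Spp1 uncertain there.

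**Figure D3:**
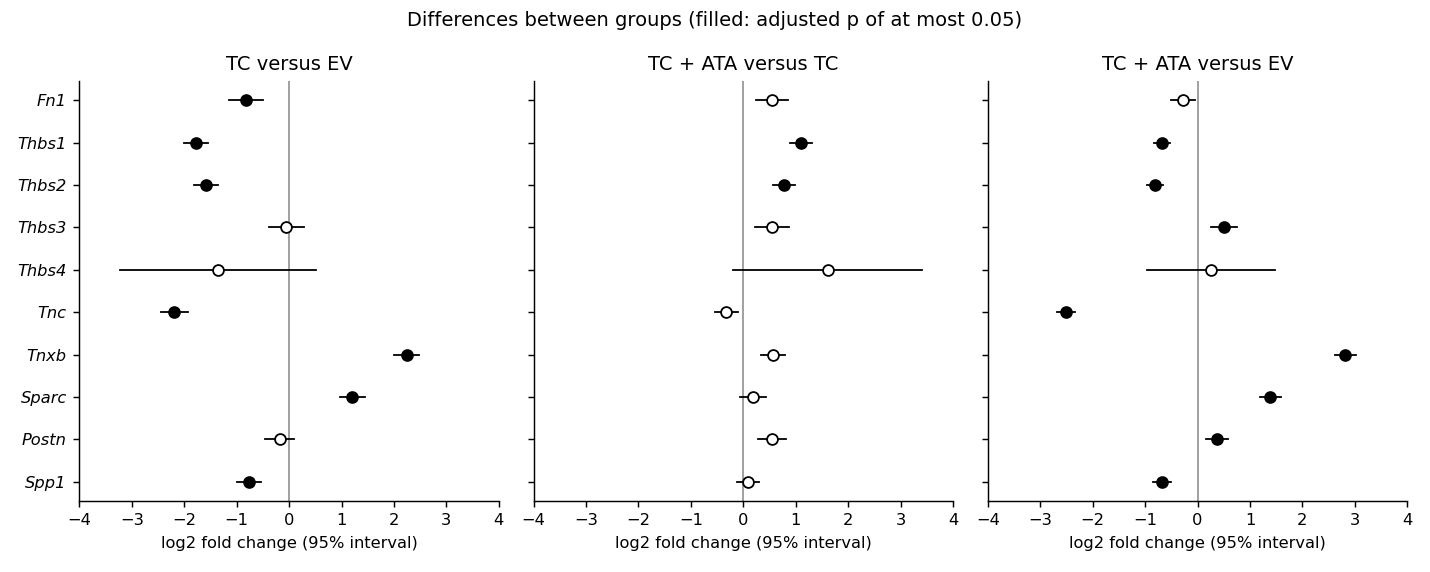
Log2 fold changes with 95% intervals from edgeR for the 10 genes in TC versus EV, TC + ATA versus TC and TC + ATA versus EV (filled points have an adjusted p of at most 0.05). Tnc and Tnxb have the largest called changes against EV, Thbs1 and Thbs2 are the genes called in TC + ATA versus TC, and the intervals of Thbs4 are the widest.

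Of 15 relatives of these families, 10 were tested in TC versus EV, where 5 were lower (background 13.2%), 0 were higher (background 14.8%) and 5 did not pass the test. At an unadjusted p under 0.05, 7 were lower and 0 higher, and DESeq2 likewise called none higher. Smoc2, a calcium-binding member of the SPARC family, stood at 119 ± 3.60 CPM (SD, n = 2) with the empty vector and 13.0 CPM with the fusion (log2 fold change −3.20, standard error 0.11, adjusted p = 4.20e-07 from edgeR). Smoc1, its closest relative, went from 3.50 ± 0.224 CPM (SD, n = 2) to 0.461 CPM (log2 fold change −2.92, standard error 0.40, adjusted p = 0.000681 from edgeR). Sparcl1, which encodes the SPARC-like protein hevin, went from 10.7 ± 0.463 CPM (SD, n = 2) to 3.04 CPM (log2 fold change −1.82, standard error 0.18, adjusted p = 9.35e-05 from edgeR). These 3 relatives of Sparc thus changed in the direction opposite to Sparc itself. The median log2 fold change over the 10 tested relatives was −1.63, against −0.03 over all genes.

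With ATA, Smoc2 was the only relative that edgeR called, and DESeq2 with all libraries called 3 (background of edgeR 0.426% higher). Smoc2 was at 25.6 ± 1.53 CPM (SD, n = 3) in TC + ATA, 1.97-fold above TC (log2 fold change 0.98, standard error 0.10, adjusted p = 0.00488 from edgeR) and 4.65-fold below EV (log2 fold change −2.22, standard error 0.07, adjusted p = 1.13e-07 from edgeR). Against EV, 5 relatives were lower and 1 higher in TC + ATA, beside 18.6% and 18.0% of all genes. Tgfbi, the paralog of Postn, was 3.42-fold lower (log2 fold change −1.78, standard error 0.18, adjusted p = 8.70e-05 from edgeR) and Sparcl1 2.47-fold lower (log2 fold change −1.30, standard error 0.12, adjusted p = 4.10e-05 from edgeR). Tnr, which encodes the neural tenascin-R, was low throughout and 1.82-fold higher (log2 fold change 0.87, standard error 0.30, adjusted p = 0.0479 from edgeR). DESeq2 with all libraries called no relative higher, and DESeq2 with only these groups called 1.

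Receptors for these proteins changed in both directions in TC. Of 18 receptor genes, all tested, 5 were higher, 5 were lower and 8 did not pass the test, beside 14.8% higher and 13.2% lower among all genes. The median log2 fold change was 0.06. Fitted to EV and TC alone, DESeq2 called 5 receptors higher and 2 lower. Itga3, an integrin subunit of laminin and thrombospondin receptors, had the largest rise, from 93.7 ± 7.13 CPM (SD, n = 2) to 790.2 CPM (log2 fold change 3.08, standard error 0.10, adjusted p = 2.66e-07 from edgeR). Cd44, a receptor of hyaluronan and osteopontin, rose from 96.3 ± 2.03 CPM (SD, n = 2) to 217 CPM (log2 fold change 1.17, standard error 0.08, adjusted p = 1.27e-05 from edgeR). Itgav, the alpha subunit of many receptors of fibronectin and osteopontin, rose from 97.0 ± 8.00 CPM (SD, n = 2) to 204 CPM (log2 fold change 1.08, standard error 0.09, adjusted p = 3.22e-05 from edgeR). Itgb5 and Itgb3, beta subunits that pair with it, fell by 1.99-fold (log2 fold change −0.99, standard error 0.10, adjusted p = 8.00e-05 from edgeR) and 1.62-fold (log2 fold change −0.70, standard error 0.20, adjusted p = 0.0277 from edgeR). The beta subunit Itgb1 instead rose from 638 ± 19.6 CPM (SD, n = 2) to 1186 CPM (log2 fold change 0.90, standard error 0.09, adjusted p = 0.000105 from edgeR). Itga8, which encodes another subunit that binds fibronectin and tenascin-C, fell by 3.66-fold (log2 fold change −1.87, standard error 0.21, adjusted p = 0.000216 from edgeR). In TC + ATA versus TC none of the 18 was called by edgeR or by DESeq2 with all libraries (by edgeR, 4 were higher and 1 lower at an unadjusted p under 0.05), while DESeq2 with only these groups called 2 higher and 2 lower. In TC + ATA versus EV, 7 were higher and 4 lower (background 18.0% and 18.6%). Itga3 was then 7.67-fold, Itgav 1.94-fold and Cd44 1.88-fold above EV. Itga8, Itgb5 and Sdc3, a syndecan, were 2.10-fold, 1.69-fold and 1.45-fold below EV.

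Among 10 partners that assemble or crosslink the matrix, or that thrombospondin 1 can activate, 4 rose and 4 fell in TC (background 14.8% and 13.2%), and the median log2 fold change was 0.04. Fbln1, which encodes the fibronectin-binding fibulin 1, rose from 3.27 ± 0.690 CPM (SD, n = 2) to 13.6 CPM (log2 fold change 2.06, standard error 0.18, adjusted p = 4.47e-05 from edgeR). Bmp1, a protease that processes procollagen, rose by 1.83-fold (log2 fold change 0.87, standard error 0.14, adjusted p = 0.00182 from edgeR), and Tgm2, a transglutaminase that crosslinks fibronectin, by 1.64-fold (log2 fold change 0.71, standard error 0.11, adjusted p = 0.00109 from edgeR). Ltbp1, which tethers latent TGF-beta to fibronectin fibrils, fell by 1.98-fold (log2 fold change −0.99, standard error 0.10, adjusted p = 8.00e-05 from edgeR). Lox, the collagen crosslinking oxidase, fell from 1689 ± 102 CPM (SD, n = 2) to 905 CPM (log2 fold change −0.90, standard error 0.10, adjusted p = 0.000249 from edgeR), and Tgfb3 fell by 1.67-fold (log2 fold change −0.74, standard error 0.10, adjusted p = 0.000775 from edgeR). None of the 10 was called by edgeR in TC + ATA versus TC, where 2 were higher at an unadjusted p under 0.05 and DESeq2 with all libraries called 1 higher. Against EV, 4 partners were higher and 4 lower in TC + ATA (background 18.0% and 18.6%), where Fbln1, Tgfb2 and Bmp1 were 5.17-fold, 2.09-fold and 1.76-fold above EV and Ltbp1, Tgfb3 and Tgfb1 were 1.88-fold, 1.72-fold and 1.54-fold below it.

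**Figure D4:**
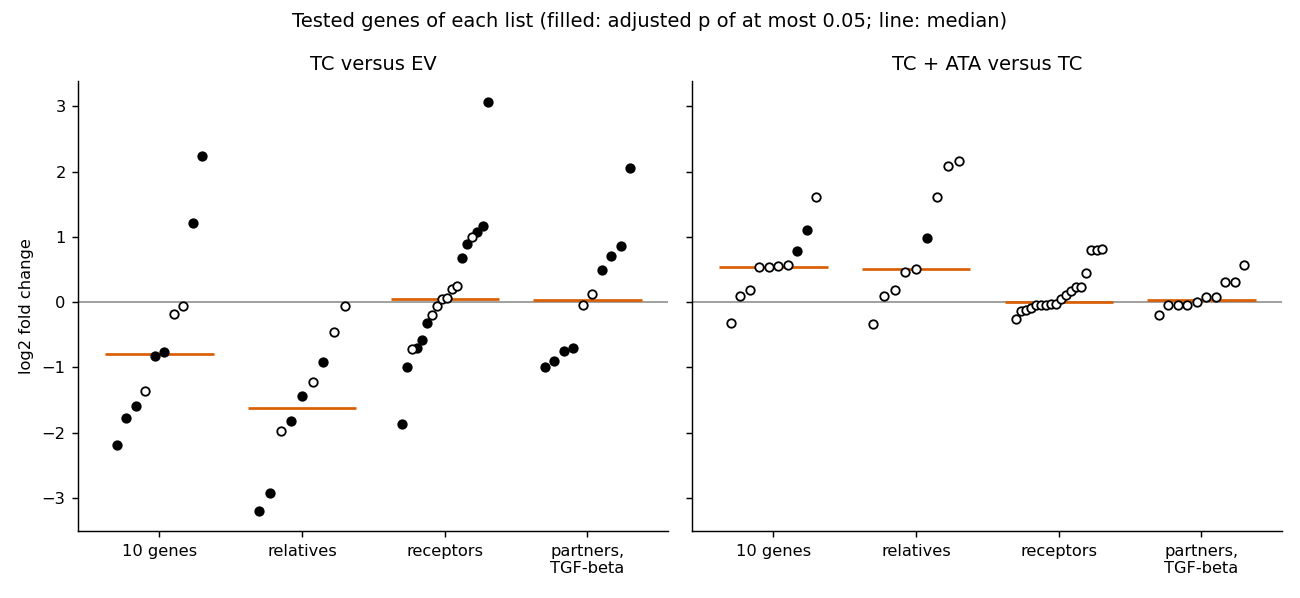
Log2 fold changes of the tested genes of each list in TC versus EV (left) and TC + ATA versus TC (right), with filled points for an adjusted p of at most 0.05 and a line at the median. Tnn, with no count in the TC library, is not drawn, and the median of the relatives is −1.63 on the left and 0.51 without Tnn on the right.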

How the data were processed

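Poly(A) RNA of 6 NIH3T3 libraries was sequenced as paired-end reads on an Illumina HiSeq instrument. Alignment by the authors used HISAT2 (2.2.1 in the submitters' processing notes) on GRCm38.p6 (mm10), and featureCounts gave the counts that the authors deposited, which are raw and whole. The annotation release and the strand setting are not given in the sources used here, so reads of genes that overlap on opposite strands may not be separated. Identifiers were matched to GENCODE M21 (GRCm38), which holds 55141 of the 55401 genes and gave the positions and exon lengths.

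Groups and replicate numbers came from the sample titles. The counts were tested in R 4.3.3 with edgeR 4.0.16 (filterByExpr, TMM normalization, glmQLFit and glmQLFTest, all 6 libraries in 1 fit with 3 residual degrees of freedom, Benjamini-Hochberg adjustment over 18539 genes), and the step was tested on simulated data. Standard errors and 95% intervals were derived from the F statistic. DESeq2 1.42.0, other scalings and filters, a replicate block and leaving out each EV or TC + ATA library were the alternatives. The lowest share this depth can show is 3 counts of a library total, and such limits cover counting error only.

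The 10 genes and the lists of relatives, receptors, partners and cell type markers were chosen with earlier results of these data known. All 10 genes are named. From each list and comparison, up to 3 called genes with the largest rise and up to 3 with the largest fall and a mean of at least 1 CPM are named. Itgb1 is named in addition, beside the other beta subunits.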

Additional observations from a re-analysis of the deposited data

How the results depend on the processing

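Over the 10 genes, 3 comparisons and 14 alternatives, 416 values could be compared with the reported ones, and Thbs4 gave none where it was filtered or had no adjusted p. Of these, 366 kept their direction and side of the threshold, 7 lost the call, 40 gained it and 3 changed sign. The sign changes were Thbs3 in TC versus EV, which became 0.028 with the replicate block and ran from −0.24 to 0.15 with each library left out in turn, and Thbs4 in TC + ATA versus EV, which ran from −0.20 to 0.93. Counts of calls against EV, among the 10 genes and among the 43 listed relatives, receptors and partners, stayed within 1.5 times the reported ones.

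The count for TC + ATA versus TC moved most. Of the 10 genes, 6 were called higher without a filter on low counts and in DESeq2 with all libraries, and 7 were higher and 1 lower in edgeR or DESeq2 with only the groups compared. With the replicate block, 1 was higher, Thbs1, and Thbs2 lost its call. With each library left out in turn, between 1 and 7 were higher and between 0 and 1 lower. For the 43 listed genes, 1 higher and 0 lower became 4 higher without a filter and in DESeq2 with all libraries, 8 higher and 1 lower in edgeR and 7 higher and 2 lower in DESeq2 with only the groups compared, and between 1 and 8 higher and between 0 and 2 lower with each library left out. Over all genes, 79 higher and 29 lower became 795 and 633 in edgeR with only the groups compared, and 7 and 3 without TC + ATA replicate 3.

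In TC versus EV over all genes, 2735 higher and 2456 lower became 1717 and 1467 with the replicate block and 1315 and 1095 in DESeq2 with only the groups compared, and 3708 were lower without EV replicate 1. In TC + ATA versus EV, 3449 lower became 2195 with the block. Replicate numbers 1 and 2 occur in both EV and TC + ATA, and same-numbered libraries did not deviate together (correlations of 0.0040 and −0.17 over 12712 genes), so the numbers were not taken as pairs. Scaling by library size alone moved the median of all genes in TC versus EV by −0.11 on the log2 scale and changed no direction among the 10 genes. The fits that leave out an EV library leave EV with 1 library, assumed to vary like TC + ATA. Because TC has 1 library, no alternative could leave it out. Thbs4 had both low counts and a wide spread between libraries, and the part of depth alone was not tested.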
